A study of Mus musculus with 128 samples.

Results

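The effect of a high-fat against a low-fat diet was examined in interscapular brown adipose tissue (BAT) of SM/J mice at 20 weeks of age. The libraries were chosen by their labels and table columns alone: 8 libraries of high-fat mice (4 females, 4 males) and 8 of low-fat mice (4 females, 4 males), or 16 of the 128 libraries of the series. SM/J is an inbred strain derived from mice bred for small body size, and LG/J, the comparison strain of the series, comes from mice bred for large size. The labels call the diets highfat and lowfat without further detail and name no genetic alteration or drug. By the labels, all groups were mice of 1 strain, tissue and age that differed in diet and sex. Tissue was frozen whole, and ribosomal RNA was depleted before sequencing, so each value is an average over all cell types of the depot. Mice of the same strain and depot at 30 weeks (16 libraries) and LG/J mice at 20 weeks (16 libraries) served for comparison.

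Brown adipocytes burn fatty acids and glucose to make heat, through Ucp1, a protein that lets protons leak across the inner mitochondrial membrane. They also make fatty acids from glucose: citrate made in mitochondria is exported, split by Acly, carboxylated by Acaca and joined into palmitate by Fasn, a pathway that carbohydrate feeding and insulin switch on through the factors Srebf1 and Mlxipl. A brown depot that takes up more fat can come to resemble white fat, with larger lipid droplets, leptin, matrix and macrophages.

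The 16 libraries summed to between 16293526 and 20053406 normalised counts each. Across genes, which are no independent replicates, any 2 of them had a Pearson's r between 0.909 and 0.991. No pair of libraries held identical values. The high-fat and low-fat libraries came in separate tables that the authors had filtered and scaled by themselves, and the values had up to 2 decimals in the high-fat table and up to 9 in the low-fat table. The tables were put on 1 scale here, but diet and table cannot be told apart in any difference below. High-fat female 756 and low-fat male 542 leaned toward the other diet: their mean log2 levels of the fatty acid and triglyceride synthesis list were 9.32 and 8.88, where the other high-fat libraries lay between 8.36 and 8.82 and the other low-fat ones between 9.09 and 9.79. Markers of skeletal muscle varied widely within both diets, with mean log2 levels of -0.43 to 6.42 and -0.85 to 5.76. The brown fat label held: Ucp1 lay between 2742 and 6161 normalised CPM (counts scaled to 1e+06 a library) in all 16 libraries. None of 14 T and NK cell markers and none of 10 epithelial markers stood in both tables, so those cells were not analysed here.

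Diet separated many genes by small amounts. In limma with sex as a covariate, 3517 of 12759 genes differed (27.6%, Benjamini-Hochberg adjusted p under 0.05), of which 1851 rose (14.5%) and 1666 fell (13.1%) on the high-fat diet. The median size of the called changes was 0.45 on the log2 scale, and 263 genes changed at least 2-fold (158 higher, 105 lower) and 21 at least 4-fold (8 higher, 13 lower). All 8 high-fat libraries lay on 1 side of all 8 low-fat libraries in 369 genes (2.89%), 173 higher (1.36%) and 196 lower (1.54%). The split depended on the scaling: 52.6% of calls were rises here, against 84.5% with scaling by library totals and 91.8% on the values as deposited, where the median of all genes was 0.18 and 0.25 in place of 0.03. Directions below are relative to the median gene.

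**Figure D1:**
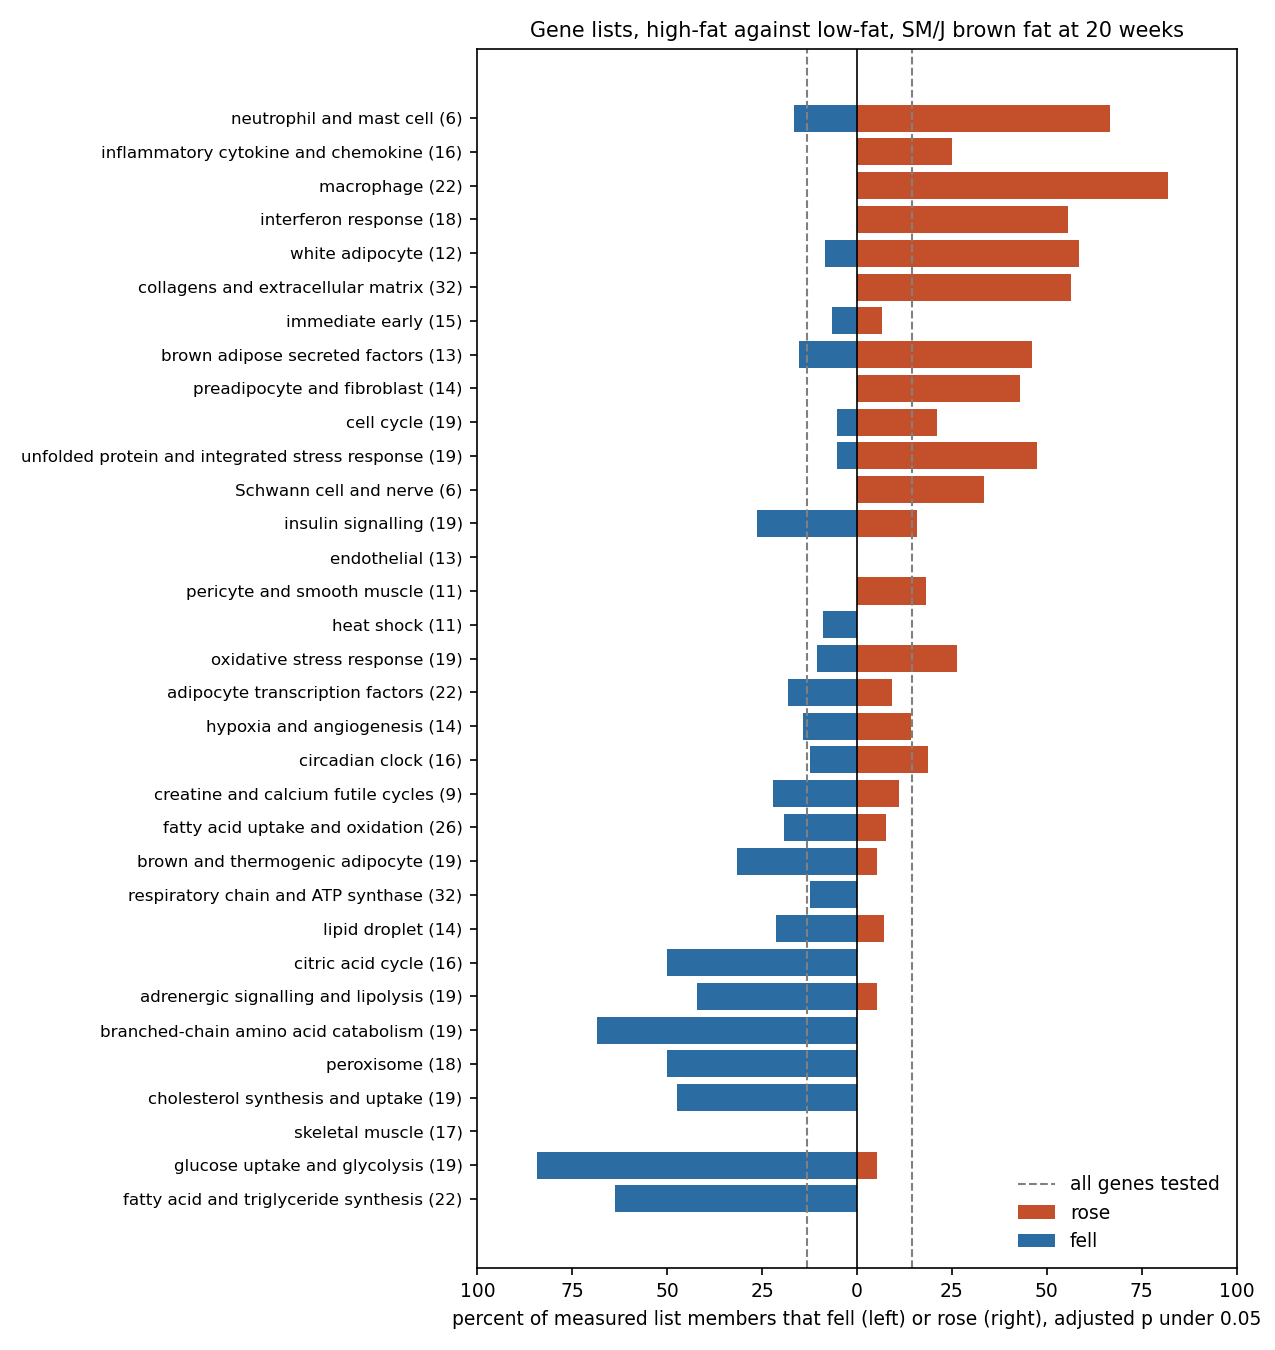
Percent of the measured members of each gene list (number in brackets) that fell (left, blue) or rose (right, orange) on the high-fat diet at adjusted p under 0.05, ordered by the list's median change, with dashed lines at the shares over all 12759 genes (13.1% and 14.5%). Fatty acid synthesis, glycolysis and branched-chain amino acid lists reach far left of the dashed line, and macrophage, neutrophil and mast cell, white adipocyte, matrix and interferon lists far right.

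Fatty acid synthesis had the lowest median of the 36 gene lists with a measured member. Of 22 measured genes for making fatty acids and triglycerides 14 fell and 0 rose on the high-fat diet, with a median of -0.70 against 0.03 over all genes, and 18 were lower in both sexes. Their summed level was 62720 to 132100 CPM on the low-fat diet (median 112700) and 35660 to 97570 CPM on the high-fat diet (median 55010). In bulk tissue, fewer cells of a type and less RNA per cell cannot be told apart.

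Fasn (chromosome 11, 120805846 to 120824547, minus strand, mm10), which joins the 2-carbon units into palmitate, had 18390 CPM in the lowest low-fat library, a median of 35340 and a highest of 44600, and on the high-fat diet 3929, 8099 and 24210 CPM. The difference was -1.79 (SE 0.33, adjusted p = 0.000874). The ranges overlapped only through high-fat female 756 with 24210 CPM, which stood above low-fat female 699 (19780 CPM) and low-fat male 542 (18390 CPM). Acly (chromosome 11, 100476353 to 100528000), which splits citrate into acetyl-CoA, went from 2437 to 8638 CPM (median 6724) to 583.4 to 3168 CPM (median 1125), and fell by 2.07 (SE 0.35, adjusted p = 0.000486). High-fat female 756 (3168 CPM) and high-fat male 290 (2450 CPM) stood above low-fat male 542 (2437 CPM), and the first also above low-fat female 699 (3015 CPM). Thrsp, a lipogenic protein that carbohydrate induces, was at 2262 to 6009 CPM (median 4057) and 1058 to 2539 CPM (median 1296), and fell by 1.55 (SE 0.20, adjusted p = 6.12e-05). Here too only the highest high-fat library exceeded the lowest low-fat one.

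Most other steps of the pathway moved the same way. The citrate carrier Slc25a1 fell by 1.62, the carboxylases Acaca and Acacb by 1.54 and 0.79, the elongases Elovl6 and Elovl5 by 1.48 and 0.63, and malic enzyme Me1, a source of NADPH, by 1.41. Agpat2 and Dgat1, which build glycerolipids, fell by 0.84 and 0.33, Pnpla3 by 1.12 and Insig1, which restrains sterol-regulated factors, by 0.59. Mlxipl, the carbohydrate-sensing factor ChREBP, was the member without overlap: 201.0 to 320.7 CPM on the low-fat and 112.7 to 192.3 CPM on the high-fat diet, and fell by 0.76 (SE 0.11, adjusted p = 0.000135). The partner factor Srebf1 was at -0.34 (adjusted p = 0.0869) and did not pass.

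Desaturase genes did not pass the test. Scd1, the main desaturase of adipose tissue, lay between 28910 and 60480 CPM on the low-fat diet and between 22030 and 53920 CPM on the high-fat diet, a difference of -0.42 (SE 0.21, adjusted p = 0.134). Scd2 (-0.01), Fads1 (0.03), Fads2 (-0.22), the triglyceride enzyme Dgat2 (-0.12) and the phosphatidate phosphatase Lpin1 (0.19) did not pass either.

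**Figure D2:**
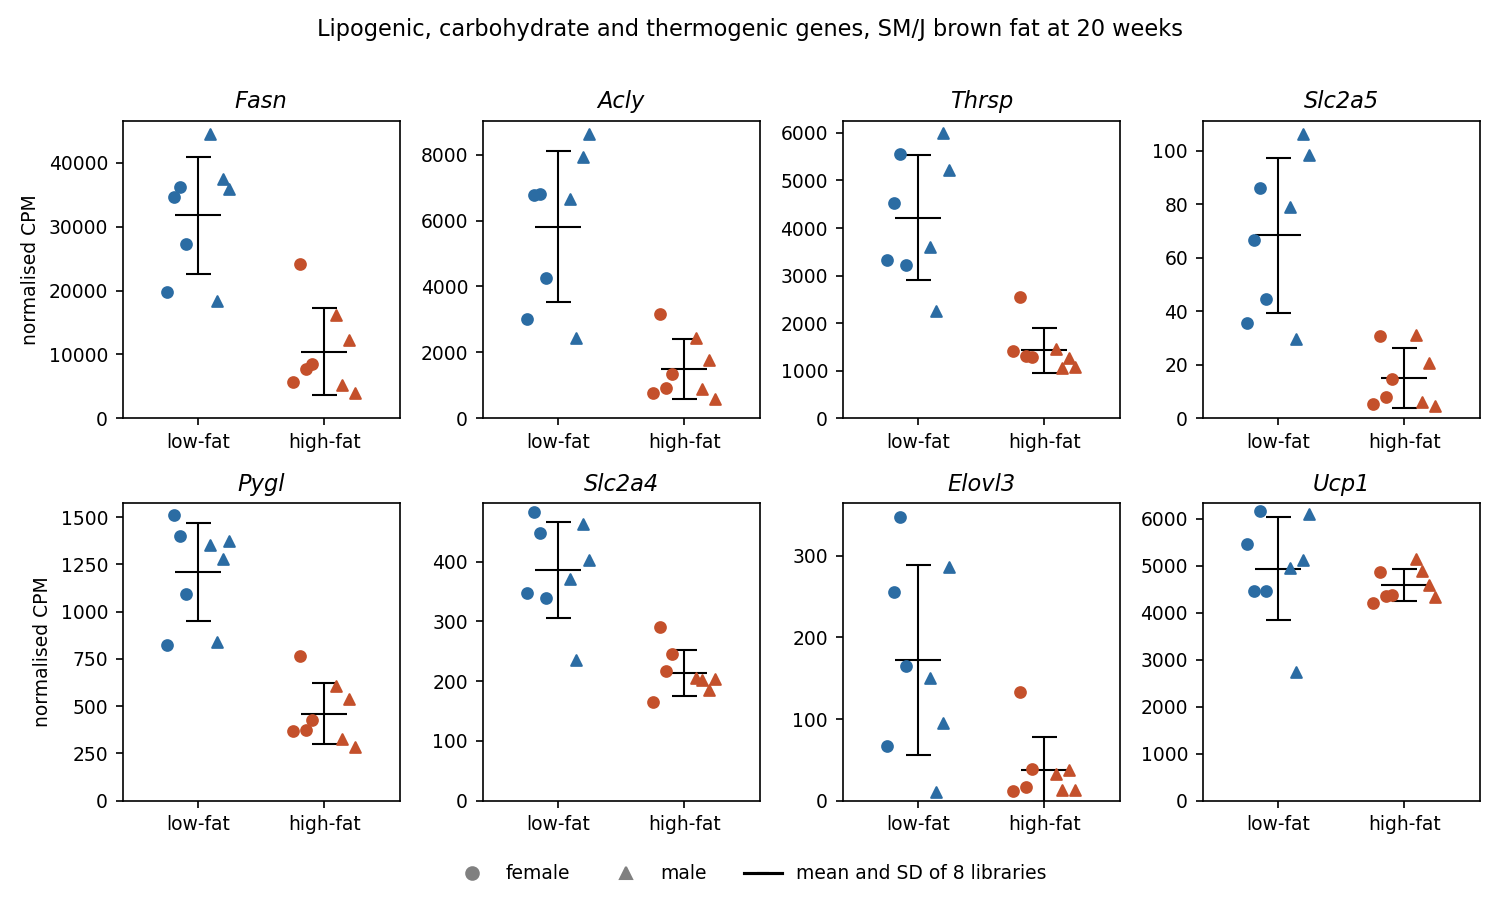
Normalised CPM of 8 genes in each of the 16 libraries by diet (circles females, triangles males, bar and whiskers the mean and SD of 8 libraries; a whisker that would pass below 0 stops at the axis). Fasn, Acly, Thrsp, Slc2a5, Pygl, Slc2a4 and Elovl3 have lower means on the high-fat diet, with female 756 as the highest high-fat circle, and the high-fat Ucp1 values (4202 to 5140) lie within the low-fat range (2742 to 6161).

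Genes that bring glucose in and break it down fell almost as a block. Of 19 measured genes 16 fell and 1 rose (median -0.58), and 17 were lower in both sexes. Pygl, a glycogen phosphorylase, lay between 825.7 and 1513 CPM on the low-fat diet (median 1314) and between 285.4 and 762.9 CPM on the high-fat diet (median 400.1), and fell by 1.43 (SE 0.19, adjusted p = 7.99e-05). Its groups did not overlap, nor did those of Pfkm, a phosphofructokinase (97.85 to 140.1 and 63.59 to 95.86 CPM, a difference of -0.53). Slc2a4, the insulin-responsive glucose transporter GLUT4, fell by 0.84 (SE 0.13, adjusted p = 0.000277) from a median of 387.1 CPM to 204.6 CPM. The glycogen synthases Gys1 and Gys2 fell by 0.58 and 1.31, and the enzymes Eno1, Gpi1, Aldoa, Gapdh, Pkm and Ldha by 1.01, 0.91, 0.87, 0.83, 0.70 and 0.53.

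Transport of sugars did not all move in 1 direction. Slc2a1, the insulin-independent transporter GLUT1, was the 1 member that rose (0.88, SE 0.26, adjusted p = 0.0187). The fructose transporter Slc2a5 (chromosome 4, 150119283 to 150144169) had among the largest falls of all genes: 29.53 to 106.2 CPM (median 72.91) on the low-fat diet and 4.48 to 30.97 CPM (median 11.23) on the high-fat diet, and fell by 2.41 (SE 0.42, adjusted p = 0.000606). Only the 2 highest high-fat libraries reached the lowest low-fat library. Pdk1, a kinase that shuts pyruvate dehydrogenase, fell by 0.98 (adjusted p = 0.000172), and Pdk4, the fat-induced kinase of the same family, was at -0.11 (adjusted p = 0.419).

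Cholesterol synthesis moved in part. Of 19 measured genes 9 fell and 0 rose, with a median of -0.29. Fdft1, the enzyme of the squalene step, fell by 1.30 (SE 0.19, adjusted p = 0.000184), from 89.23 to 230.1 CPM (median 169.1) to 47.84 to 112.2 CPM (median 63.47). Pmvk, Idi1 and Lss fell by 0.81, 0.68 and 0.64. The synthase Hmgcs1 (-0.05) and the factor Srebf2 (-0.05) did not pass. Without high-fat female 292 the count was 6, and without low-fat male 542 it was 11.

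The promoters of the lipid synthesis genes, RefSeq sequences of GRCm38.p6 covering the 250 bases before each start, were searched on both strands for 10 motifs. These were TCACNCCAC and the shorter TCACNCCA contained in it (sterol response elements), CACGTG (E-box), 2 CANNTG words 5 bases apart (carbohydrate response element), CCAAT (NF-Y box), 2 AGGTCA words 1 base apart (PPAR element), 2 GAAA words 2 bases apart (interferon response element), TGATGNAA and the narrower TGATGCAA (amino acid response element), and TGCACNC. The motif CCAAT stood in 12 of the 12 cholesterol genes with a promoter in the table and in 11 of the 17 fatty acid genes, against 33.8% of 32851 promoters and 39.8% of the 9654 tested genes that were matched. It also stood in 15 of the 19 unfolded protein and stress response genes and in 5 of 14 interferon genes. The sterol element TCACNCCA stood in 3 of 12 and 2 of 17 (3.67% of promoters, 3.94% of tested genes), and CACGTG in 3 of 12 and 4 of 17 (6.02% and 9.95%). The longer TCACNCCAC stood in 1 of 12 and 1 of 17 (1.05% and 1.21%), and TGCACNC in 1 of 12 and 3 of 17 (10.4% and 12.6%). The carbohydrate response and PPAR elements stood in 0 of 12 and 0 of 17. A match is a description and not a binding site, and the lists hold genes that changed and genes that did not. The promoters of Fasn (chr11:120824548-120824797, minus strand) and of Lss, lanosterol synthase (chr10:76531355-76531604, plus strand), are printed 5′ to 3′ because both genes fell. Capitals mark CCAAT or its reverse complement, in 3 places in Fasn at 59 to 90 bases before the start, where 2 of them overlap, and in 1 place in Lss at 62 bases before it.
Fasn: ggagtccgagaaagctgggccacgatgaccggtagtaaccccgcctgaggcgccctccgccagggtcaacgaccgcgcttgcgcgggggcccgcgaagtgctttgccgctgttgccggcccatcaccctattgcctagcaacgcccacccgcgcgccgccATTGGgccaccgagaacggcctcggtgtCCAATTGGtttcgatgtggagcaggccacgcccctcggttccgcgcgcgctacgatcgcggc
Lss: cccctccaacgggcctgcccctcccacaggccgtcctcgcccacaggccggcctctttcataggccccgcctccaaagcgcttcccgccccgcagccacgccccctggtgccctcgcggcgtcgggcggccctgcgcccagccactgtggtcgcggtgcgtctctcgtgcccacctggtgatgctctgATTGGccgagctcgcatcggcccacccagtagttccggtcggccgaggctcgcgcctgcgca

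Mitochondrial lists differed in how many members fell. Of 16 citric acid cycle genes 8 fell and 0 rose (median -0.19), led by the pyruvate dehydrogenase subunits Pdhb (-0.82) and Dlat (-0.52). Of 32 respiratory chain genes 4 fell (Uqcrc1, Sdha, Ndufs1 and Atp5j, by 0.41 to 0.19) and 0 rose, with a median of -0.15, a share near the 13.1% of all genes. Without high-fat female 292 that count was 8. Of 19 genes for breakdown of the branched-chain amino acids 13 fell and 0 rose (median -0.25). They included Slc25a44, the mitochondrial carrier of these amino acids, at 162.8 to 269.3 CPM and 125.1 to 175.7 CPM (-0.58, SE 0.08, adjusted p = 7.87e-05), the dehydrogenase subunits Bckdha (-0.44) and Dbt (-0.33), and Hibch (-0.47) and Aldh6a1 (-0.45) of the valine branch. Bcat1, the cytosolic enzyme that takes the amino group off, moved the other way: 3.29 to 17.33 CPM (median 6.87) on the low-fat and 20.11 to 47.49 CPM (median 24.53) on the high-fat diet, a rise by 1.99 (SE 0.29, adjusted p = 0.000157) with no overlap.

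Genes for fatty acid uptake and oxidation passed the test about as often as all genes (27.6%). Of these 26 genes 5 fell and 2 rose (median -0.11), where 13.1% of all genes fell and 14.5% rose. Ehhadh, a peroxisomal enzyme, fell by 1.10 (SE 0.19, adjusted p = 0.000629) and the uptake protein Slc27a1 by 0.69, while the fatty acid carrier Fabp3 rose by 0.86 (SE 0.19, adjusted p = 0.00325), from 443.2 to 1210 CPM to 937.3 to 1782 CPM. Cpt1a, the gate of mitochondrial import, rose by 0.36 (adjusted p = 0.0244). Acot1 fell by 1.17, a value that is uncertain because near-identical thioesterase genes share reads. Lpl (0.05), Acadl (-0.09) and Hadh (0.04) did not pass. Without low-fat male 542 the count of falls in this list was 8. Of 18 peroxisome genes 9 fell and 0 rose (median -0.26), with Pex11a (-0.59), Crot (-0.51), Pex14 (-0.43) and Pex5 (-0.38) as the members of smallest p.

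Ucp1 did not pass the test, and some other brown adipocyte genes fell. Ucp1 (chromosome 8, 83290352 to 83298452) lay between 2742 and 6161 CPM on the low-fat diet (median 5030) and between 4202 and 5140 CPM on the high-fat diet (median 4473), a difference of -0.07 (SE 0.14, adjusted p = 0.747). The sign of this value turned with library-total scaling (0.09) and on the values as deposited (0.16). The deiodinase Dio2 (0.36, adjusted p = 0.167), the co-activator Ppargc1a (-0.11, adjusted p = 0.605, and 0.05 with library-total scaling) and the droplet protein Cidea (-0.25, adjusted p = 0.0558) did not pass. Of 19 brown adipocyte genes 6 fell and 1 rose (median -0.11). Those that fell were Kcnk3, a potassium channel, from 243.8 to 400.0 CPM to 131.8 to 220.5 CPM without overlap (-0.84, SE 0.08, adjusted p = 4.72e-06), the fatty acid activator Slc27a2 (-1.24), the proton channel Otop1 (-0.59), Pank1 (-0.38), Esrrg (-0.41) and Elovl3. The developmental factor Ebf2 rose (0.42).

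Elovl3, an elongase that cold induces in brown fat, was the most variable of these. It lay between 11.08 and 347.0 CPM on the low-fat diet (median 157.4) and between 12.26 and 133.0 CPM on the high-fat diet (median 25.04), and fell by 2.20 (SE 0.60, adjusted p = 0.0118). Low-fat male 542 had the lowest value of all 16 libraries, and high-fat female 756 was above 3 low-fat libraries. Bmp8b, a secreted enhancer of thermogenesis, fell by 1.82 (SE 0.35, adjusted p = 0.00129), with the same female at 4.94 CPM where the other high-fat libraries did not pass 1.92 CPM.

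Of 19 genes of the adrenergic and lipolytic list 8 fell, 1 rose and 10 did not pass (median -0.24). Adrb1, a beta-adrenergic receptor, fell by 0.53, the kinase subunits Prkaca and Prkar2b by 0.41 and 0.36, the cyclase Adcy3 by 0.34, and the lipases Lipe and Pnpla2 by 0.42 and 0.34. The call for Pnpla2 was lost when any of 8 libraries was left out. Plin1, which coats the lipid droplet, fell by 0.39 (SE 0.07, adjusted p = 0.000575), and Hilpda, a lipase inhibitor of the droplet, rose by 1.17 (SE 0.25, adjusted p = 0.00256) as the 1 droplet gene of 14 that rose, while 3 fell. That count of falls was 1 without high-fat female 862 and 5 without high-fat male 734. Alpl, a phosphatase of the creatine cycle, fell by 1.51 (SE 0.16, adjusted p = 1.55e-05), from 13.3 to 34.12 CPM to 6.77 to 12.98 CPM without overlap.

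Among all genes, Sorcs2, a sorting receptor of the VPS10 family (chromosome 5, 36017180 to 36398139), had the largest fall by the naming rule. It lay between 85.19 and 209.5 CPM on the low-fat diet (median 152.3) and between 7.32 and 46.15 CPM on the high-fat diet (median 13.16), and fell by 2.96 (SE 0.34, adjusted p = 2.32e-05). The groups did not overlap. Hsd11b1, which regenerates active glucocorticoid inside cells (chromosome 1, 193221634 to 193264075), had 91.35 to 355.6 CPM (median 221.9) and 19.11 to 65.42 CPM (median 34.7), and fell by 2.46 (SE 0.28, adjusted p = 2.45e-05), also without overlap. Pth1r, the receptor for parathyroid hormone, went from 34.1 to 97.41 CPM (median 62.59) to 7.002 to 23.04 CPM (median 10.18), and fell by 2.32 (SE 0.24, adjusted p = 1.07e-05). All 8 high-fat libraries were again below all 8 low-fat ones.

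The other large falls covered signalling, transport and contractile genes. Ramp1, a subunit of the receptor for the neuropeptide CGRP, fell by 2.54 and the ADP-ribosylhydrolase-like Adprhl1 by 2.39. The membrane protein Mmd2 fell by 2.20, the water channel Aqp11 by 2.19, the cilium protein Ttc25 by 2.14, the vesicle GTPase Rab6b by 1.94 and the synaptic protein Rims4 by 1.83. Myl3, a myosin light chain of heart and slow muscle, fell by 2.29 (SE 0.53, adjusted p = 0.00418), although high-fat male 704 was at 9.03 CPM and the other high-fat libraries at or below 2.51 CPM. Among them, only Mmd2 had no overlap between diets.

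The largest rise by the naming rule was that of Eya2, a transcriptional co-activator with phosphatase activity (chromosome 2, 165595032 to 165771727). It was nearly silent on the low-fat diet, at 1.025 to 7.90 CPM (median 1.49), and at 10.98 to 23.4 CPM (median 19.33) on the high-fat diet, a rise by 3.13 (SE 0.29, adjusted p = 4.72e-06). The groups did not overlap, and their edges were high-fat female 756 (10.98 CPM) and low-fat male 542 (7.90 CPM). Itih4, an acute-phase protein, rose by 2.70 (SE 0.38, adjusted p = 0.000116). It went from 0.89 to 10.54 CPM (median 3.29) to 6.86 to 42.59 CPM (median 24.94). Rarres2, which encodes the adipokine chemerin (chromosome 6, 48569696 to 48572789), rose by 2.02 (SE 0.22, adjusted p = 1.94e-05), from 9.45 to 52.66 CPM (median 18.15) to 53.84 to 115.3 CPM (median 85.3), with no overlap by a narrow margin.

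Further large rises were spread over adhesion, matrix and growth control. Sdk1, a cell adhesion protein, rose by 2.22, Vgll3, a cofactor of TEAD transcription factors, by 2.02, Apol6 by 1.98, Pawr, a pro-apoptotic regulator, by 1.89, the heparan sulfate proteoglycan Gpc1 by 1.83 and Pcolce, which speeds collagen processing, by 1.78. In each of these 6 genes the diets did not overlap. H2-Q6, a class Ib histocompatibility gene, rose by 2.20, a value that is uncertain because near-identical genes of the cluster share reads.

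Another 3 large rises varied widely among libraries. Ptx3, a pentraxin of inflamed tissue, lay between 0.889 and 40.53 CPM on the low-fat diet (median 11.36) and between 12.01 and 185.3 CPM on the high-fat diet (median 24.83), a rise by 2.26 (SE 0.52, adjusted p = 0.0044). Gdf15, a stress cytokine, rose by 1.79 (SE 0.51, adjusted p = 0.0158) and the sphingosine kinase Sphk1 by 1.83 (SE 0.60, adjusted p = 0.0301). In all 3 the diets overlapped, and the call for Sphk1 was lost when any of 5 libraries was left out.

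**Figure D3:**
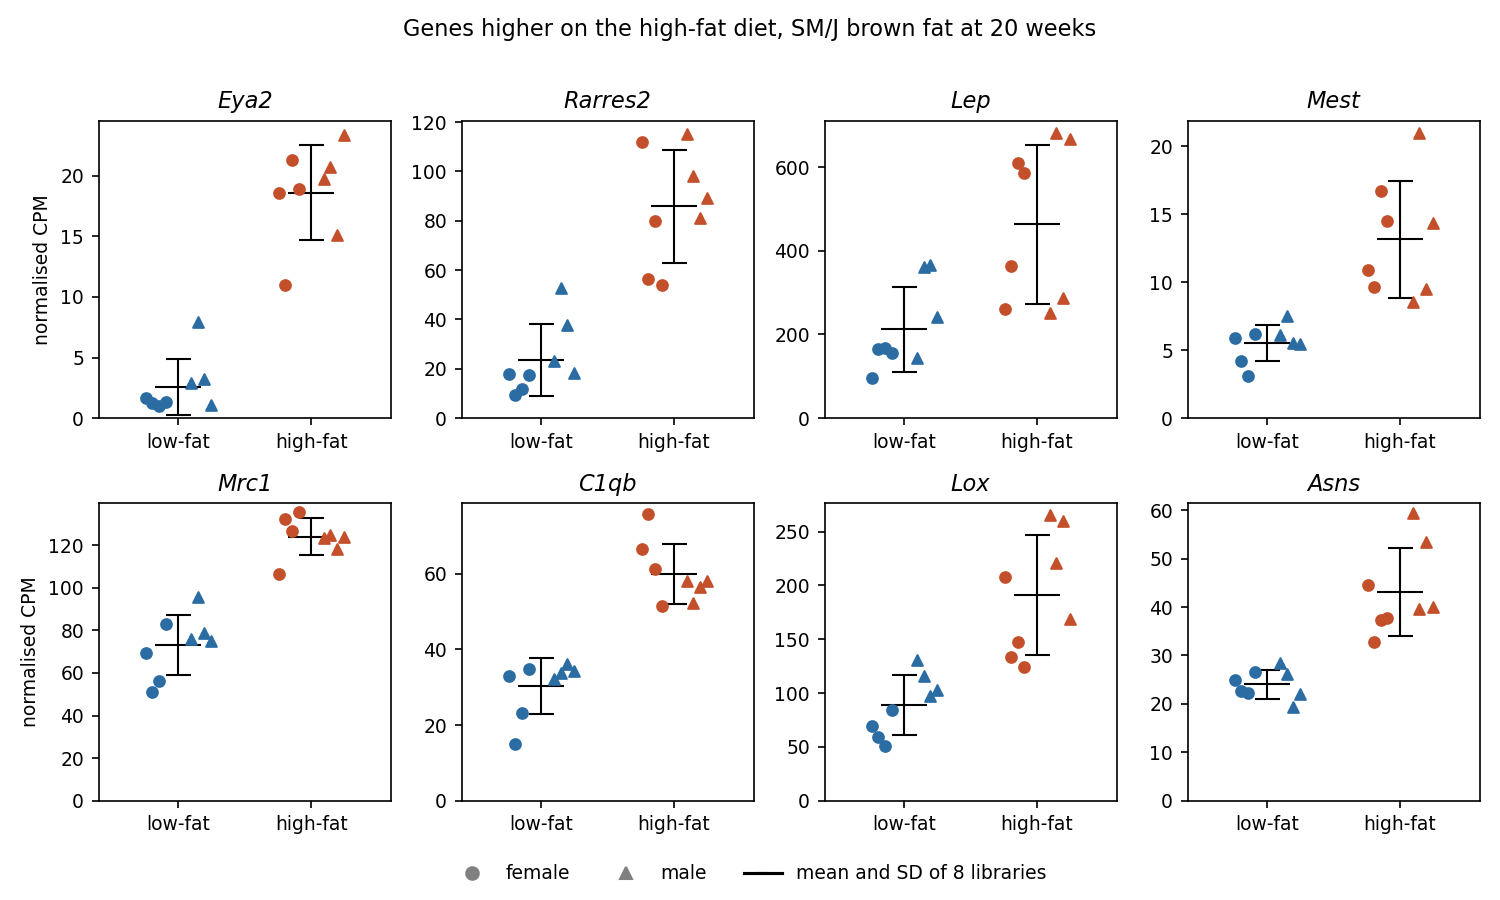
Normalised CPM of 8 genes in each of the 16 libraries by diet (circles females, triangles males, bar and whiskers the mean and SD of 8 libraries). The diets do not overlap for Eya2, Rarres2, Mest, Mrc1, C1qb and Asns, and they overlap for Lep and by a few CPM for Lox.

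White adipocyte genes included several rises. Of 12 measured markers 7 rose and 1 fell, with a median of 0.59. Lep, the adipocyte hormone leptin (chromosome 6, 29060220 to 29073877), lay between 95.62 and 366.7 CPM on the low-fat diet (median 167.2) and between 250.5 and 681.8 CPM on the high-fat diet (median 474.6), a rise by 1.15 (SE 0.28, adjusted p = 0.00578). Low-fat males 542 and 650, at 360.3 and 366.7 CPM, stood among the high-fat values. Mest, an imprinted gene linked to adipocyte enlargement, did not overlap (3.10 to 7.50 and 8.54 to 20.98 CPM), a rise by 1.22 (SE 0.19, adjusted p = 0.000293). The imprinted Nnat rose by 1.25 (SE 0.31, adjusted p = 0.00702), the natriuretic peptide clearance receptor Npr3 by 0.95 without overlap (305.4 to 720.5 and 750.1 to 997.7 CPM), and the dermatopontin gene Dpt by 0.87. The 1 member that fell was Fabp4, and Adipoq, the gene of adiponectin, was at 0.13 (adjusted p = 0.4).

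Macrophage genes were higher almost throughout. Of 22 markers 18 rose and 0 fell (median 0.79), and all 22 had positive differences. Mrc1, the mannose receptor, lay between 51.27 and 95.73 CPM on the low-fat diet (median 75.48) and between 106.7 and 135.6 CPM on the high-fat diet (median 124.4), a rise by 0.78 (SE 0.10, adjusted p = 5.71e-05). The complement genes C1qa, C1qb and C1qc rose by 0.95, 1.02 and 0.87. In these 4 genes the diets did not overlap. Adgre1, a classical macrophage surface marker, rose by 0.68 (SE 0.22, adjusted p = 0.0277), with overlap, and lost its call when any of 6 libraries was left out.

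The macrophage difference rested more on some libraries than on others. The summed level of the 22 markers was 970.2 to 1139 CPM on the high-fat diet and 296.2 to 947.7 CPM on the low-fat diet, where females 724 and 730 had the lowest mean log2 levels (2.81 and 3.27, against 4.04 to 4.86 in the other 6). Without female 724 the count of rises was 13. In females alone 18 of the 22 rose (median 1.18) and in males alone 5 (median 0.33), against 9.63% and 2.08% of all genes higher and 6.88% and 3.46% lower. The diet-by-sex test called 0 of 12759 genes, so a difference between the sexes was not shown for any of them.

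The macrophage level moved with much else. When the mean log2 level of these markers was added to the model, the count of genes with a diet difference was 455 (172 higher, 283 lower) in place of 3517. Fatty acid synthesis genes then had 5 falls in place of 14 (median -0.60), glycolysis genes 1 fall in place of 16 (median -0.50), and matrix genes 2 rises and 1 fall in place of 18 rises (median -0.07). The part of cell content in the diet differences was not tested. The covariate itself was higher on the high-fat diet, at 4.72 to 5.11 against 2.81 to 4.86.

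**Figure D4:**
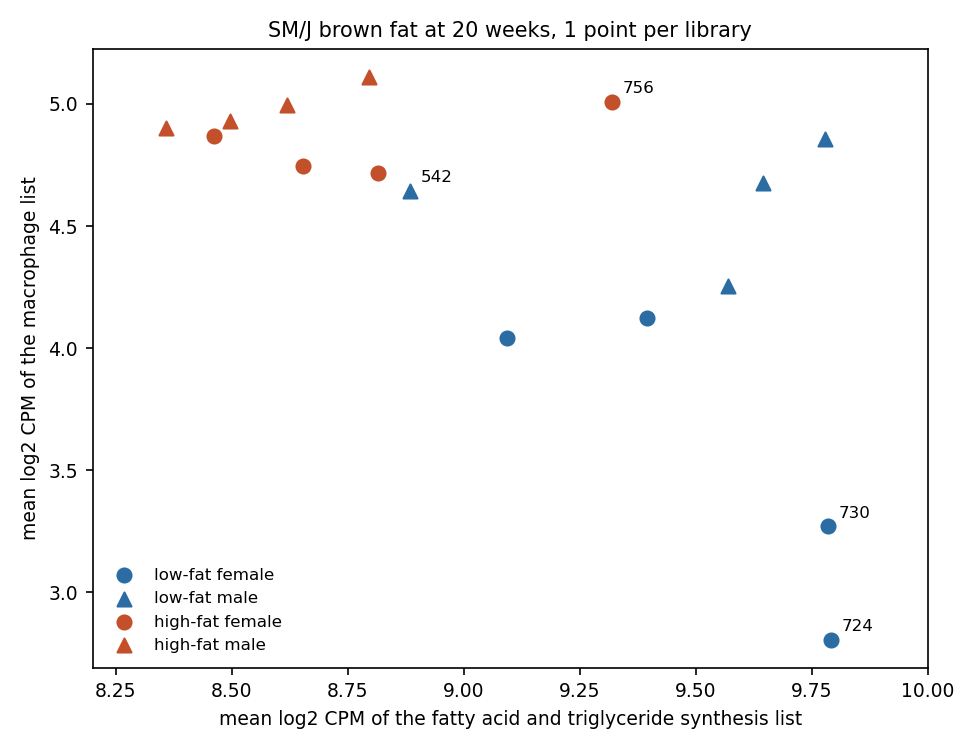
Mean log2 CPM of the macrophage list (vertical axis) against that of the fatty acid and triglyceride synthesis list (horizontal axis), 1 point per library, coloured by diet and shaped by sex. The high-fat libraries gather at the upper left, female 756 (9.32) and male 542 (8.88) lie toward the other diet, and low-fat females 724 and 730 lie lowest.

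Many matrix genes rose. Of 32 collagen and matrix genes 18 rose, 0 fell and 14 did not pass, with a median of 0.51. Lox, which crosslinks collagen (chromosome 18, 52516067 to 52529867), rose by 1.12 (SE 0.13, adjusted p = 2.32e-05), from 50.89 to 131.0 CPM (median 90.76) to 124.3 to 265.9 CPM (median 188.6). Col12a1 rose by 1.11, the basement membrane gene Nid1 by 1.09 without overlap (92.39 to 285.4 and 311.6 to 486.3 CPM), Col5a2 by 0.62 and Sparc by 0.64. The major fibrillar collagen Col1a1 was at 0.50 (SE 0.35, adjusted p = 0.308) with opposite signs in females (1.43) and males (-0.44). Over the list the medians were 0.90 in females and 0.16 in males, and the count was 13 without high-fat female 292.

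Fibroblast and progenitor markers rose in 6 of 14 cases (median 0.39), among them Mfap5 (0.68), Thy1 (0.55), Cd34 (0.47) and the receptor Pdgfra (0.42). Mcam, a pericyte adhesion protein, rose by 0.94 (SE 0.10, adjusted p = 1.52e-05), and Acta2 by 0.39. They were the only ones of 11 mural markers to rise, where 14.5% of all genes rose. The call for Acta2 was lost when any of 8 libraries was left out. Of 13 endothelial markers 0 rose and 0 fell (median 0.13), with Kdr at -0.33 (adjusted p = 0.0547). S100b, a Schwann cell and adipocyte gene, rose by 0.54 without overlap (165.6 to 241.0 and 289.1 to 375.3 CPM), while the myelin gene Mbp (-0.18, and 0.05 on the values as deposited) did not pass.

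Interferon response genes were higher by moderate amounts in both sexes. Of 18 genes 10 rose and 0 fell, with a median of 0.59, and medians of 0.55 in females and 0.58 in males. Rsad2, the antiviral protein viperin, lay between 2.43 and 9.84 CPM on the low-fat diet (median 4.26) and between 6.35 and 18.76 CPM on the high-fat diet (median 8.71), a rise by 1.15 (SE 0.28, adjusted p = 0.00575). High-fat male 704 was far above the rest. Ifi27l2a rose by 1.02, the immunoproteasome subunit Psmb8 by 0.67, the interferon-signalling factor Irf9 by 0.64 and Stat2 by 0.56. Without male 704 the count was 7.

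The interferon element is 2 GAAA words 2 bases apart. It stood in the 250 bases before a start in 7 of the 14 interferon genes with a promoter searched, against 2.98% of promoters. The list was assembled from genes known to answer interferon, so this share is a property of the list and not of the diet. Of these, 2 are printed, that of Rsad2 (chr12:26456453-26456702, minus strand), which rose, and that of Ifit3 (chr19:34583279-34583528, plus strand), at 0.57 with adjusted p = 0.0737, with the element or its reverse complement in capitals at 120 bases before the start in Rsad2 and at 122 and 156 bases in Ifit3.
Rsad2: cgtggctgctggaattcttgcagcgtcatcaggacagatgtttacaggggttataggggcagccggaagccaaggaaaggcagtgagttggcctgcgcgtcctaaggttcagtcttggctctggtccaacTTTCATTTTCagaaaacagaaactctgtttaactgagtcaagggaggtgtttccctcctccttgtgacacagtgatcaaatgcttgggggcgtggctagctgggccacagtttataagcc
Ifit3: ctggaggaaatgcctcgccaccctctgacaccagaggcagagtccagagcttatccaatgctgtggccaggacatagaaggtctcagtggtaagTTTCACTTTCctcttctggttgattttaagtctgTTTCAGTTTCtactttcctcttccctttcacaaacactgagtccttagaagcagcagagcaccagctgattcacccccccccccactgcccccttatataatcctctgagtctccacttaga

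Cytokine and chemokine genes had a median of 0.90, yet 4 of 16 passed: Ccl8 (1.38), the interleukin 1 antagonist Il1rn (1.17), Cx3cl1 (0.61) and Ccl11 (0.30). Their levels varied among animals on the same diet, as the summed level of 162.2 to 518.1 CPM on the high-fat and 126.9 to 309 CPM on the low-fat diet shows. Without low-fat female 699 the count was 12, and without low-fat male 650 it was 2. The granulocyte gene S100a9 rose by 1.78 (SE 0.54, adjusted p = 0.0215) and the mast cell proteases Tpsb2 and Mcpt4 by 0.98 each, whereas the stem cell factor receptor Kit fell by 0.93 (SE 0.17, adjusted p = 0.000794). Rises in that list of 6 measured genes numbered 4, and 2 without high-fat male 703. Ighm, the immunoglobulin M heavy chain, rose by 1.05 and Cd79a, a subunit of the B cell receptor, fell by 0.82, the only 2 of 9 B cell markers measured in both tables.

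Amino acid and protein folding stress genes rose in part. Of 19 genes of the unfolded protein and integrated stress response 9 rose and 1 fell (median 0.30). Asns, asparagine synthetase (chromosome 6, 7675169 to 7693254), lay between 19.38 and 28.42 CPM on the low-fat diet and between 32.74 and 59.5 CPM on the high-fat diet, a rise by 0.82 (SE 0.11, adjusted p = 7.99e-05) without overlap. The serine synthesis enzymes Psat1 and Phgdh rose by 1.15 and 1.44. The chaperone Hspa5 (0.23) and Xbp1 (0.43) rose less, Pdia6 fell by 0.55, and the factors Atf4 (0.30) and Ddit3 (0.08) did not pass. The amino acid element TGATGNAA stood in 4 of the 19 promoters, those of Asns, Atf3, Chac1 and Herpud1, against 3.45% of promoters.

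Hormones and clock genes changed individually. Lcn2, the acute-phase carrier lipocalin 2, rose by 1.63 (SE 0.23, adjusted p = 0.00012) without overlap (0.98 to 3.48 and 5.06 to 13.34 CPM), adrenomedullin Adm rose by 1.38, and Angptl8, a feeding-induced regulator of lipoprotein lipase, fell by 0.92 (SE 0.17, adjusted p = 0.00102). The insulin pathway list held 5 falls and 3 rises of 19, with the receptor Insr at -0.24, Irs1 at -0.56 and Tbc1d4 at -0.39 among the falls and Grb10 at 0.34 among the rises. Its rises numbered 1 without low-fat male 650 and 5 without high-fat male 734. Nfil3 (1.21), Per1 (0.60) and Per2 (0.62) rose and Bhlhe41 (-0.43) and Dbp (-0.55) fell among 16 clock genes, with 0 falls without high-fat female 292. Fosl2 rose by 1.40 (SE 0.24, adjusted p = 0.000558) and Nr4a2 fell by 0.78 without overlap as the calls among 15 immediate early genes, with 4 rises without high-fat male 734. Metallothioneins Mt1 and Mt2 rose by 1.01 and 1.55, values that may share reads. Among 22 adipocyte transcription factors Ppara (-0.52), Esrra (-0.40), Tfam (-0.28) and Cebpa (-0.49) fell, and Cebpd (1.12) and Klf9 (0.41) rose. Calls in the clock and transcription factor lists were about as frequent as over all genes (27.6%, 14.5% higher and 13.1% lower). With all 16 libraries, calls in the immediate early list were less frequent than that.

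Some proliferation genes were called, and no measured member of the skeletal muscle list and no haemoglobin gene was. Mki67, a marker of dividing cells, was at 0.54 (SE 0.30, adjusted p = 0.192). Of 19 cell cycle genes 4 rose (Mcm2, Mcm3, Mcm6 and Pcna, by 0.26 to 0.38) and 1 fell (Ccne1, -0.60). Over all genes 14.5% rose and 13.1% fell. Without high-fat female 292 there were 2 rises among the cell cycle genes. Of 17 skeletal muscle genes 0 rose and 0 fell, with medians of -1.61 in females and 0.61 in males and summed levels of 75.91 to 2039 CPM on the high-fat and 44.14 to 1320 CPM on the low-fat diet. Of the called genes that met the other naming rules, 12 had a residual correlation with the muscle score above 0.7. Among these 12, the 5 largest changes were Epdr1 (1.17), Fxyd6 (1.03), Tbx15 (0.91), Txlnb (-0.79) and Ankrd23 (0.68). With the muscle score in the model the count of diet differences was 3602. The 3 haemoglobin genes, Hba-a1 and the near-identical Hbb-bs and Hbb-bt, which may share reads, were at 0.97 to 1.21, and none passed.

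Females alone gave 2107 calls (16.5%, 1229 higher and 878 lower) and males 707 (5.54%, 266 higher and 441 lower). No gene passed the test of the difference between the sexes in limma (0 of 12759, with 1066 at an unadjusted p under 0.05), and without low-fat female 761 there were 3. Lipid synthesis was lower in both sexes, with medians of -0.66 in females and -0.71 in males, and so was glycolysis (-0.58 and -0.68).

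Other SM/J mice of 30 weeks, held in the same 2 tables, gave 4780 diet differences (37.5%; 2314 higher, 2466 lower). Of the 3517 genes called at 20 weeks 2373 (67.5%) were also called at 30 weeks, which is 49.6% of the genes called there, and 3402 had the same sign. The difference between the ages passed for 0 of 12759 genes in limma (1168 at an unadjusted p under 0.05), with 0 or 1 when any of the 32 libraries was left out. Fasn was at -2.50 (adjusted p = 5e-07) at 30 weeks, Acly at -2.52, Slc2a5 at -3.08, Eya2 at 3.31 and Lep at 1.33, each in the direction seen at 20 weeks. The lists of fatty acid synthesis (18 of 22 fell, median -0.82) and cholesterol synthesis (14 of 19, median -0.51) held more calls than at 20 weeks. Respiratory chain genes had 17 falls and 1 rise of 32 (median -0.20), against 4 falls at 20 weeks. Lipid droplet genes had 9 falls and 0 rises of 14 (median -0.25), against 3 falls. Fatty acid uptake and oxidation genes had 9 falls and 1 rise of 26 (median -0.15), against 5 falls. Some other lists held fewer. Macrophage genes had 7 rises of 22 (median 0.28, against 18 rises at 20 weeks) and matrix genes 11 of 32 (median 0.20, against 18). Interferon genes had 6 rises of 18 (median 0.34, against 10) and branched-chain amino acid genes 7 falls of 19 (median -0.09, against 13). At 30 weeks 18.1% of all genes rose and 19.3% fell. Ptx3 (0.09), Gdf15 (0.02) and Sphk1 (-0.42) did not pass at 30 weeks, and the cytokine list had a median of -0.26 with 0 rises, without a shown difference between the ages for any of them.

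LG/J mice on the same diets gave 3 diet differences among 12615 genes in limma (0.0238%), Dlgap1 (-1.40), Slc29a1 (0.72) and Rragd (0.96), of which 2 were higher (0.0159%) and 1 lower (0.00793%), and 1323 genes had p below 0.05 before adjustment. Without a single library the count changed, to 16 without LG/J high-fat female 623, 9 without high-fat male 351 and 20 without low-fat male 534. The diet effect itself differed between the strains in 1914 of 12257 genes (15.6%), more positive in SM/J for 943 (7.69%) and more negative for 971 (7.92%). The 2 LG/J tables were also scaled by themselves, so strain, diet and table meet in this test. Both LG/J tables had values of up to 9 decimals, as the SM/J low-fat table did, against 2 in the SM/J high-fat table. Of 22 fatty acid synthesis genes 11 had a more negative effect in SM/J and 0 a more positive one, and the LG/J median was 0.01. Thrsp was at 1016 to 6872 CPM and 1424 to 4259 CPM on the low-fat and high-fat diets of LG/J mice, a difference of 0.00, and the strain difference was -1.55 (SE 0.38, adjusted p = 0.00727). For Fasn the LG/J difference was -0.20, with a strain difference of -1.59 (SE 0.60) that did not pass (adjusted p = 0.067).

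The strain difference was also seen among rises. Of 20 macrophage genes 10 had a more positive effect in SM/J mice and 0 a more negative one, with an LG/J median of -0.36, and of 32 matrix genes 14 and 0, with an LG/J median of -0.16. Pawr (strain difference 1.88, SE 0.24), Vgll3 (1.92), Egfr, the epidermal growth factor receptor (1.41), and the lipid flippase Atp11a (0.95) had the smallest p among the positive ones. Myo5c, a secretory myosin (-1.61), Svip, an inhibitor of protein degradation at the endoplasmic reticulum (-1.22), Farp1 (-1.07) and Ldhd, D-lactate dehydrogenase (-0.60), had the smallest p among the negative ones. Pawr lay between 3.20 and 5.49 CPM on the high-fat and 1.81 and 7.40 CPM on the low-fat diet of LG/J mice, where SM/J mice had 24.25 to 47.53 and 6.71 to 15.99 CPM. Levels set across the strains' tables depend on their joint scaling.

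**Figure D5:**
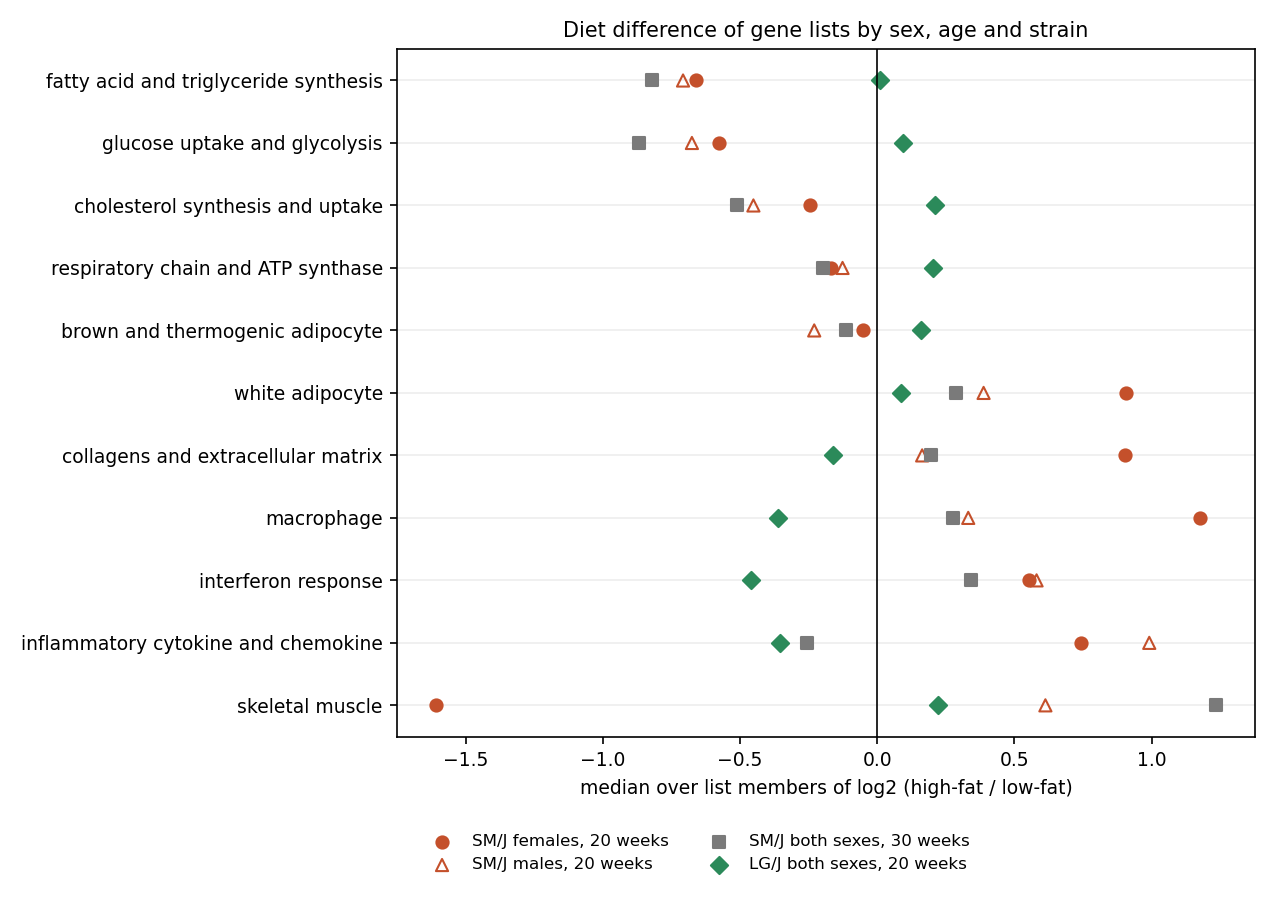
Median over the measured members of 11 gene lists of the log2 difference between high-fat and low-fat diet, in SM/J females (filled circles) and males (open triangles) at 20 weeks, SM/J mice at 30 weeks (squares) and LG/J mice at 20 weeks (diamonds). Synthesis and glycolysis lists lie left of 0 in the 3 SM/J sets and near or right of 0 in LG/J, macrophage and interferon lists lie right of 0 in SM/J and left of it in LG/J, and the skeletal muscle list (5 of 17 members measured in LG/J) changes side between sexes and ages.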

How the data were processed

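Total RNA of frozen interscapular brown fat was depleted of ribosomal RNA and sequenced, and reads were aligned to mm10 with STAR 2.6.0c and handled with edgeR, per the submitters' processing notes. The deposited tables hold a normalised signal per gene, fractional counts that the authors filtered and scaled in each table by itself; the roles of the tools in that step are not given in the sources used here, and the depth in reads is unknown. Genes of the X, Y and mitochondrial chromosomes were not analysed here.

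The 12759 genes in both tables (13252 high-fat, 12875 low-fat) were rescaled together as CPM (counts scaled to 1e+06 a library) with trimmed-mean-of-M factors (trims of 30% and 5%). log2(CPM + 0.1) was fitted in limma 3.58.1 (R 4.3.3, mean-variance trend, sex covariate), two-sided, with Benjamini-Hochberg adjustment over all genes and a threshold of 0.05. A log2 difference is high-fat minus low-fat on this scale, which understates changes of low genes. The labels call the samples biological replicates, 4 for each sex and diet. The fit was tested on simulated data.

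Genes were named by rule: the 15 largest rises and 15 largest falls with a mean of at least 5 CPM in the higher diet, 1 sign in both sexes and a residual correlation with the muscle score of at most 0.7; 5 genes above that limit; the 4 members of smallest p in each of 38 lists; up to 4 per sign of each interaction; and 13 genes followed throughout. Other list members were named after their values were seen. Some genes that the rule picks are not reported here. Members and lists were chosen with earlier results of these data known. Alternatives covered scaling, pseudocount, low-value filter, covariates, sex, sample weights and leaving out each library.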

Additional observations from a re-analysis of the deposited data

Results flagged for a closer look

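In 13 of 86 groups of 8 libraries tested, 1 library stood apart from the rest of its diet by more than the 95% limit of Dixon's test, a limit that chance passes in about 1 group of 20. High-fat female 756 was the highest of its diet in 7 of them, all in genes that were lower on the high-fat diet: Elovl3 at 133 CPM (next 38.7), Aqp11 at 19.3 (10.8), Ttc25 at 11.8 (6.35), Rab6b at 42.8 (19.7), Rims4 at 16.1 (7.64), Bmp8b at 4.94 (1.92) and Ramp1 at 3.23 CPM (1.79). Low-fat male 542 was the highest of its diet in Eya2, at 7.90 CPM (next 3.21), and in Apol6, at 103 CPM (59.4). High-fat male 704 stood apart in H2-Q6, at 54 CPM (next 25), and in Myl3, at 9.03 CPM (2.51). Low-fat male 336 stood apart in Sphk1, at 11.5 CPM (4.19), and high-fat female 292 in Col1a1, at 237 CPM (149).

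The diet effect differed between SM/J and LG/J mice at 20 weeks, by the interaction term, in 1914 genes.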

How the results depend on the processing

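Leaving out each of the 16 libraries gave 2862 (without low-fat female 724) to 3939 (without low-fat male 542) diet differences, 1469 to 2040 rises and 1375 to 1899 falls. Library-total scaling gave 4266 rises and 784 falls, and 3413 strain differences. The values as deposited gave 6739 calls, 6184 rises and 555 falls. The macrophage covariate gave 455, 172 and 283, females alone 2107, 1229 and 878, and males alone 707, 266 and 441. The cause was not tested, though the last 2 hold fewer libraries. Leaving out a library gave 0 to 3 diet-by-sex genes (3 without low-fat female 761) and 0 to 1 diet-by-age genes (1 without high-fat male 734 or low-fat male 731 of 20 weeks, or high-fat male 655 of 30 weeks). It gave 1392 to 2558 strain differences, and, chosen after seeing the data, 4188 to 5449 calls at 30 weeks and 2 to 20 in LG/J mice.

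Of 158 named genes called, 14 lost the call without at least 1 library: Acta2, Adgre1, Atp5j, Bhlhe41, Bscl2, Ccl11, Gstm1, Hspe1, Il1rn, Mcm3, Mcpt4, Ndufs1, Pnpla2 and Sphk1. Calls ended for 101 of the 158 with the macrophage covariate, 79 in males alone, 42 in females alone, 21 on the deposited values, 14 with library totals, 8 without the sex term, 2 with sample weights and 1 without the trend. Signs turned in these cases. Library totals gave Ucp1 0.088, Ppargc1a 0.046 and Hspd1 0.040. The deposited values gave Ucp1 0.16, Ppargc1a 0.11, Ndufs1 0.033, Mbp 0.048, Hsp90ab1 0.044 and Hspd1 0.11. The macrophage covariate gave Col1a1 -0.98, Adgre1 -0.17, Mki67 -0.60, Gatm -0.064, Ccl8 -0.026, Tie1 -0.021, Des 0.026, Casq1 0.18, Hbb-bt -0.12, Hbb-bs -0.056 and Hba-a1 -0.33. The macrophage markers, Adgre1 among them, make up that covariate, so their loss of a difference under it is partly built in. Females alone gave Adipoq -0.0094, Rgs5 -0.0042 and Mb -0.66, and males alone Ucp1 0.042, Col1a1 -0.44, Mki67 -0.10, Des 0.082, Casq1 0.45 and Atp2a1 0.47. No paired analysis was possible because the diets share no replicate number.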

Other observations

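Some list members stood in 1 of the 2 SM/J tables and entered no test. On the high-fat diet, the acute-phase gene Saa3 lay between 1.34 and 9.40 CPM, the mast cell protease Cma1 between 1.17 and 5.20 CPM, and the granzyme Gzma between 1.21 and 4.01 CPM. In the low-fat table, the hormone gene Fgf21 lay between 0.064 and 3.06 CPM and the prostaglandin synthase Ptgs2 between 0.039 and 3.20 CPM. The tables were filtered separately, so the other diet's level of these genes is unknown here.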
